A study of Homo sapiens with 4 samples.

Results

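The genes described here build the bridge between the cytoskeleton and the nuclear lamina and keep the membranes around it in order. They are 9 genes chosen by name in the count table, SUN1, SUN2, SYNE1, SYNE2, SYNE3, TOR1A, TOR1AIP1, TOR1AIP2 and NEMP1, out of 60725 genes listed, of which 15356 had enough counts to be tested. All 9 passed that filter, which asked for at least 10 counts in at least 2 libraries. RNA-seq of polyA RNA was performed on 2 control and 2 TOP2B knockdown libraries of RPE1 SunTag, an hTERT-immortalized human retinal pigment epithelial cell line that expresses the SunTag system in both groups. Cells were transfected with 10 nM siRNA, transfected again 48 h later and collected 72 h after the second round, so that RNA was taken on day 5. Control cells received Silencer Select Negative Control No. 2 siRNA and knockdown cells a Dharmacon ON-TARGETplus SMARTpool against TOP2B, the DNA topoisomerase linked to transcription. The comparison asks what happens to the transcripts of these genes when TOP2B is depleted, and it holds 1 cell line, 1 siRNA reagent in each arm and 1 time.

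SUN proteins sit in the inner nuclear membrane, bind the lamina on their nuclear side and meet the KASH tails of the nesprins in the space between the membranes. Together they form the LINC complex, which carries force from actin, microtubules and intermediate filaments to the nucleus and positions it in the cell. TorsinA is an ATPase of the endoplasmic reticulum and the perinuclear space that is inactive until it meets LAP1 or LULL1, the products of TOR1AIP1 and TOR1AIP2. NEMP1 is an inner nuclear membrane protein linked to the stiffness of the nuclear envelope.

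Total counts lay between 20310259 and 23887013 per library, so that 1 CPM (the count scaled to library size by TMM) stood for 20.2 to 23.9 reads. TOP2B had 154.9 and 143.5 CPM in the control libraries and 15.3 and 13.3 CPM in the knockdown libraries. Its log2 fold change was -3.38 ± 0.14 (SE, n = 2 libraries per group, edgeR adjusted p = 5.1e-06), which left 9.58% of the control level. As for the cell type, RPE65 and TYR had no count in any library, RLBP1 had at most 1, while MITF stood at 38.2 to 44.8 CPM and OTX2 at 11.2 to 13.4 CPM. The epithelial keratins KRT8 and KRT18 stood at 853.5 to 1347 and 266.3 to 424.4 CPM, with lower values in both knockdown libraries (log2 fold changes -0.35 and -0.39), and PMEL (log2 fold change 1.17) and BEST1 stayed below 1.5 CPM. Of these 9 markers 6 could be tested, and 0 were called in edgeR or in DESeq2, with 2 at an unadjusted p below 0.05 in edgeR. Among all tested genes edgeR called 10.8%, and 26.3% had an unadjusted p below 0.05. Markers of other cell types summed to at most 1.27 CPM in any library, with CD3E and EPCAM at 0. Of 20 proliferation genes, 11 were called higher and 0 lower in TOP2B knockdown, where 6.66% of all tested genes were called higher. Called were MCM2 to MCM7, PCNA, CDC45, CCNE2, TYMS and CDK1. MKI67, TOP2A, CCNB1, CCNA2, BUB1, AURKB, PLK1, FOXM1 and CDC6 had positive log2 fold changes but were not called. The paper reports by PI staining that TOP2B depletion left cell cycle progression unaltered. The part of these proliferation gene differences in the values below was not tested. In bulk RNA, fewer cells of a kind and less RNA per cell cannot be told apart. The replicates are described as independent, and the p-values measure the spread between these samples.

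In short, 0 of the 9 genes passed the threshold of an adjusted p below 0.05 in the edgeR quasi-likelihood test, and 3 of 9 had an unadjusted p below 0.05. That test had condition as its only term, and a fit with a replicate block is described at the end. The Wald test of DESeq2 called 2, SYNE2 and TOR1AIP2. Over all tested genes, edgeR called 10.8% in either direction, 6.66% higher and 4.18% lower in TOP2B knockdown, and 26.3% had an unadjusted p below 0.05. DESeq2 called 11.6% of the 13458 genes to which it gave an adjusted p. The levels of the 2 groups did not overlap for 5 of the 9 genes, 2 of them higher and 3 lower in knockdown, where 54.3% of all tested genes had groups that do not overlap. The median log2 fold change of the 9 genes was 0.0017, beside -0.0029 over all tested genes, and the median size of the log2 fold change was 0.26 beside 0.24. Of the 9 values, 5 were above 0 and 4 below.

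**Figure D1:**
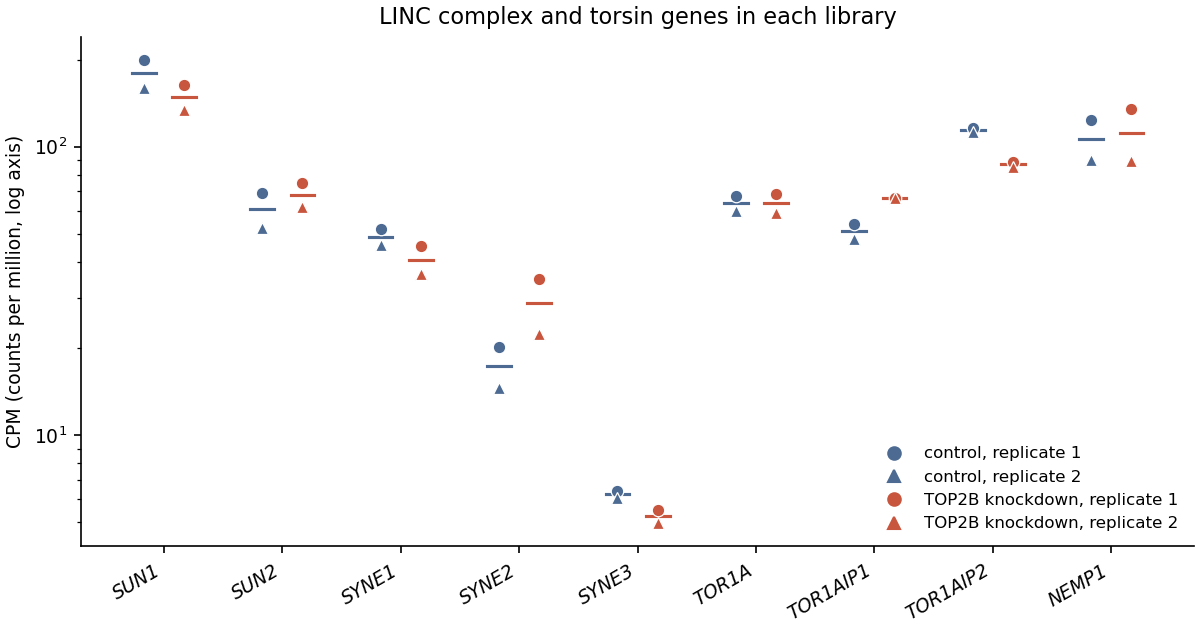
CPM of each gene in each library on a log axis, with control in blue, TOP2B knockdown in red, replicate 1 as circles, replicate 2 as triangles and the group mean as a bar. For TOR1AIP1 and TOR1AIP2 the groups lie further apart than the replicates, while NEMP1 ranged from 89.0 to 134.8 CPM with the replicates of each group far apart.

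SUN1 and SUN2 encode the SUN proteins of somatic cells. SUN1 (chromosome 7, 816615 to 896435, plus strand, GRCh38) had 199.8 and 159.5 CPM in control and 163.0 and 134.0 CPM in TOP2B knockdown. SUN2 (chromosome 22, 38733290 to 38794143, minus strand) had 69.1 and 52.3 CPM in control and 74.6 and 61.9 CPM in knockdown. In both genes the groups overlapped, and replicate 1 was above replicate 2 in each group.

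The log2 fold change was -0.27 ± 0.15 (SE, 95% interval -0.62 to 0.07, adjusted p = 0.294) for SUN1 and 0.17 ± 0.16 (SE, 95% interval -0.18 to 0.52, adjusted p = 0.543) for SUN2 in the edgeR test. These intervals allow a change of SUN1 between 0.652 and 1.05 times the control and of SUN2 between 0.883 and 1.43 times. The share of exon bases that another gene also covers, on either strand, was 15.5% for SUN1 and 24.5% for SUN2, and no source gives the strand used in counting, so that reads of overlapping genes cannot be told apart there.

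Set against each other within a library, SUN1 and SUN2 varied less between replicates than either level did alone. Per kilobase of exons, SUN1 made up 67.1% and 68.2% of the sum of SUN1 and SUN2 in the control libraries. In the knockdown libraries its share was 60.6% and 60.4%. The share was thus lower in both knockdown libraries than in both control libraries, by 7.15 percentage points, with SDs of 0.82 and 0.171 points within the groups (n = 2 each). An exact permutation test of 2 against 2 libraries cannot give a two-sided p below 0.33, which was the value found here and for every share that follows, so that these shares are given as descriptions.

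The nesprins bind the cytoskeleton outside the nucleus. SYNE1 and SYNE2 encode the giant nesprin-1 and nesprin-2, whose long isoforms bind actin and which also recruit microtubule motors, and SYNE3 encodes the smaller nesprin-3, a partner of the intermediate filament linker plectin. They are long genes: SYNE1 spans 516115 bp (chromosome 6, 152121687 to 152637801, minus strand), SYNE2 464535 bp (chromosome 14, 63761899 to 64226433, plus strand) and SYNE3 109385 bp (chromosome 14, 95407266 to 95516650, minus strand). Among tested protein-coding genes, SYNE1 and SYNE2 were longer than 98.6% and 98.2% of genes.

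SYNE2 had the largest difference of the 9 genes, with 20.3 and 14.6 CPM in control and 34.8 and 22.5 CPM in TOP2B knockdown. Both knockdown libraries were above both control libraries, but the gap between 20.3 CPM in control replicate 1 and 22.5 CPM in knockdown replicate 2 was small against the spread within the groups. The log2 fold change was 0.71 ± 0.22 (SE, 95% interval 0.23 to 1.2), or 1.64-fold, with an unadjusted p of 0.00851 and an adjusted p of 0.0662 in edgeR, just outside the threshold. This size was above that of 88.9% of tested genes.

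For SYNE2 the call changed with the test and with single libraries. The Wald test of DESeq2 gave an adjusted p of 0.0304. Leaving out control replicate 1 gave 0.97 on the log2 scale (edgeR adjusted p = 0.000204) and leaving out knockdown replicate 2 gave 1.00 (edgeR adjusted p = 3.35e-05), whereas leaving out control replicate 2 gave 0.50 (edgeR adjusted p = 0.115) and leaving out knockdown replicate 1 gave 0.37 (edgeR adjusted p = 0.335). Its direction was the same in each of these.

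SYNE1 and SYNE3 were measured on the other side of the control level. SYNE1 had 51.7 and 45.7 CPM in control and 45.1 and 36.2 CPM in TOP2B knockdown, with a log2 fold change of -0.26 ± 0.14 (SE, edgeR adjusted p = 0.279). SYNE3 had 6.43 and 6.05 CPM in control and 5.52 and 4.96 CPM in knockdown, with a log2 fold change of -0.25 ± 0.19 (SE, edgeR adjusted p = 0.435). The groups did not overlap in either gene, although SYNE1 in knockdown replicate 1 differed from control replicate 2 by only -0.02 on the log2 CPM scale. SYNE3 rested on 100 to 154 counts per library, the fewest of the 9 genes.

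Per kilobase of exons, SYNE2 made up 30.3% and 25.9% of the 3 nesprins in control and 46.2% and 40.2% in TOP2B knockdown. The share of SYNE1 was 52.6% and 55.1% in control and 40.8% and 44% in knockdown, and that of SYNE3 was 17.1% and 19.0% in control and 13.0% and 15.8% in knockdown. SYNE1 was therefore the leading nesprin in both control libraries. In knockdown replicate 1 SYNE2 stood above SYNE1, and in knockdown replicate 2 it stood below. This order depends on the division by exon length, since by CPM alone SYNE1 led in all 4 libraries, with 52.8% and 56.9% in knockdown beside 40.8% and 35.3% for SYNE2. The mean share of SYNE2 differed by 15.1 percentage points, with SDs of 3.16 and 4.26 points within the groups. Many transcripts of SYNE1 and SYNE2 start inside the gene, and the length used here is that of all annotated exons (47523 and 32359 bp). A shift between long and short isoforms could therefore change these counts and shares. It could not be told apart from a change in the number of transcripts.

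RefSeq lists 4 separated transcription starts for SYNE1, spread over 469 kb, and 3 for SYNE2, spread over 363 kb. The promoter window (250 bases before the start and 50 from it on, RefSeq, GRCh38.p14) of the most upstream of these 3 SYNE2 starts, which lies inside the span of the gene given above, is shown because SYNE2 had the largest difference, with capitals marking GC boxes, the letters GGGCGG or their reverse complement CCGCCC, which Sp1-type factors are known to bind.
SYNE2, chr14:63852754-63853053, plus strand: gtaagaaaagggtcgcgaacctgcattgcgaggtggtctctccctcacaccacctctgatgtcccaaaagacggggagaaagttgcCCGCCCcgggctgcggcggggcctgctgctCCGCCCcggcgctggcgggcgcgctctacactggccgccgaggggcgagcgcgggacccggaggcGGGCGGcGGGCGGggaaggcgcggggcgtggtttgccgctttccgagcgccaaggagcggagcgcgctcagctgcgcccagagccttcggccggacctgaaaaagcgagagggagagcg
It holds 4 GC boxes, on both strands, while the 2 starts further downstream hold 0 and 1. Of all 35116 RefSeq promoter windows of this length, 45.0% hold at least 1 GC box, so that its presence does not set SYNE2 apart.

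TOR1A encodes torsinA, an AAA+ ATPase mutated in early-onset dystonia. It lies on chromosome 9 (129812942 to 129824244, minus strand), 1.66 kb from TOR1B, which encodes the related torsinB. TOR1A had 67.7 and 59.7 CPM in control and 68.5 and 59.1 CPM in TOP2B knockdown. The groups overlapped completely, with a log2 fold change of 0.0017 ± 0.13 (SE, 95% interval -0.29 to 0.29, edgeR adjusted p = 0.995), which bounds a change of TOR1A between 0.82 and 1.22 times the control.

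TOR1B, not among the 9 genes but the closest relative of TOR1A, rose in TOP2B knockdown. It had 19.9 and 16.7 CPM in control and 29.9 and 26.9 CPM in knockdown, a log2 fold change of 0.63 ± 0.14 (SE, edgeR adjusted p = 0.0212). Without control replicate 2 its adjusted p was 0.103 and without knockdown replicate 1 it was 0.0673, both in edgeR. Per kilobase of exons, TOR1A made up 71.2% and 72.2% of TOR1A and TOR1B together in control and 62.5% and 61.5% in knockdown, a ratio that was chosen after the values had been seen.

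For the activators of torsinA, the groups lay further apart than the replicates. TOR1AIP1, which encodes LAP1 of the inner nuclear membrane, had 53.9 and 47.9 CPM in control and 66.4 and 66.6 CPM in TOP2B knockdown. TOR1AIP2, which encodes LULL1 of the endoplasmic reticulum, had 116.0 and 112.6 CPM in control and 88.4 and 85.2 CPM in knockdown. Both knockdown libraries were above both control libraries for TOR1AIP1 and below both for TOR1AIP2.

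TOR1AIP1 differed by 0.39 ± 0.12 on the log2 scale (SE, 95% interval 0.12 to 0.65), or 1.31-fold, with an unadjusted p of 0.00918 and an adjusted p of 0.0689 in edgeR. For TOR1AIP2 the log2 fold change was -0.40 ± 0.11 (SE, 95% interval -0.65 to -0.14), or 0.76-fold, with an unadjusted p of 0.00631 and an adjusted p of 0.0551 in edgeR. Neither passed the threshold. The Wald test of DESeq2 gave adjusted p-values of 0.101 for TOR1AIP1 and 0.0338 for TOR1AIP2, so that it called TOR1AIP2. Of the exon bases of TOR1AIP1, 11.8% are also covered by another gene, and of those of TOR1AIP2 0%.

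The balance between the activator genes, each counted over all its transcripts, differed by more than the spread within the groups. A shift between transcripts of a gene could not be told apart from a change in their number. Per kilobase of exons, TOR1AIP1 made up 65.2% and 63.1% of the sum of both genes in the control libraries and 75.2% and 75.9% in the knockdown libraries. The mean share was 11.4 percentage points higher in knockdown, with SDs of 1.43 and 0.514 points within the groups. The ratio of TOR1AIP1 to TOR1AIP2 on this scale was 1.87 and 1.71 in control and 3.02 and 3.15 in knockdown. Which activator led depends on the division by exon length, 4692 bp for TOR1AIP1 and 18876 bp for TOR1AIP2. By CPM alone TOR1AIP2 led in every library, with TOR1AIP1 at 31.7% and 29.9% in control and 42.9% and 43.9% in knockdown.

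**Figure D2:**
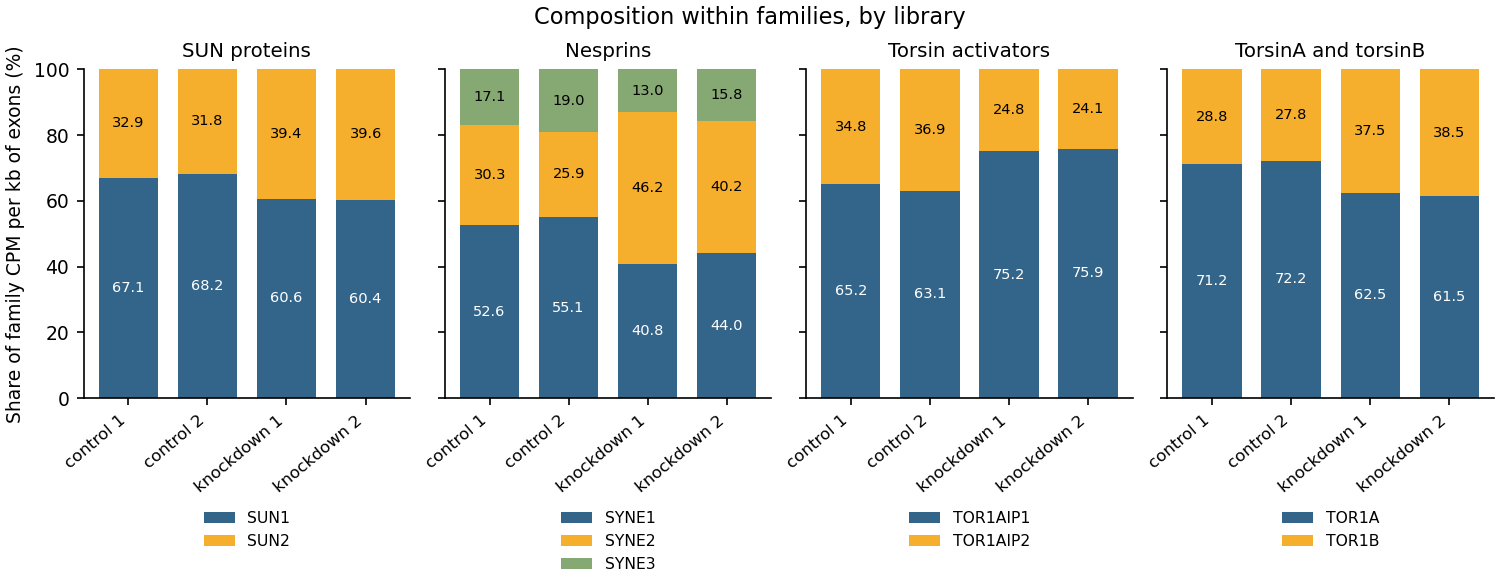
Share of each gene in the summed CPM per kilobase of exons of its family, in percent, with 1 stacked bar per library. In each of the 4 families the control bars are unlike the knockdown bars, with SUN1 at 67.1% and 68.2% in control and 60.6% and 60.4% in knockdown.

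TOR1AIP1 and TOR1AIP2 are neighbours on chromosome 1 and are read away from each other, TOR1AIP2 (179839967 to 179877803) on the minus strand and TOR1AIP1 (179882042 to 179920077) on the plus strand, with 4.24 kb between them. Their RefSeq promoter windows are given because these adjacent genes differed in opposite directions, again with GC boxes in capitals.
TOR1AIP1, chr1:179882035-179882334, plus strand: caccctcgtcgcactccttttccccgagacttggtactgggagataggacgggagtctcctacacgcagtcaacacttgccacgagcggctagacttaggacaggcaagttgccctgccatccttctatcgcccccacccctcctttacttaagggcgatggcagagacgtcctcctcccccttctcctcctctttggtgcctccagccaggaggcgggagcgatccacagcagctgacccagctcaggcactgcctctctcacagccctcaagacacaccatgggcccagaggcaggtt
TOR1AIP2, chr1:179877754-179878053, minus strand: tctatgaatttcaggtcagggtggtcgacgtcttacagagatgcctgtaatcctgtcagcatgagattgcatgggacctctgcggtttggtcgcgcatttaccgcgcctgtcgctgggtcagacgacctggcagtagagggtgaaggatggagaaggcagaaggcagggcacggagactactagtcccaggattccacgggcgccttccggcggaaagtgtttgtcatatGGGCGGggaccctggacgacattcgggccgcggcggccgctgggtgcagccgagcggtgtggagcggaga
TOR1AIP2 holds 1 GC box and TOR1AIP1 holds 0, with the same GC content of 60.7% in both windows. Neither window holds the CCAAT box (CCAAT or ATTGG), the TATA box (TATAAA or TTTATA), the E-box (CACGTG) or the cell cycle homology element (TTTGAA or TTCAAA), which 34.6%, 11.5%, 7.26% and 15.2% of all windows hold.

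NEMP1 (chromosome 12, 57055643 to 57088063, minus strand) had 123.3 and 89.6 CPM in control and 134.8 and 89.0 CPM in TOP2B knockdown. The difference between the replicates was larger than that between the groups, in both groups. Its log2 fold change was 0.07 ± 0.20 (SE, 95% interval -0.38 to 0.53, edgeR adjusted p = 0.865), so that a change between 0.767 and 1.44 times the control could not be told from none. Its RefSeq promoter window held 2 CCAAT boxes, 3 GC boxes and 1 E-box of the elements searched.

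**Figure D3:**
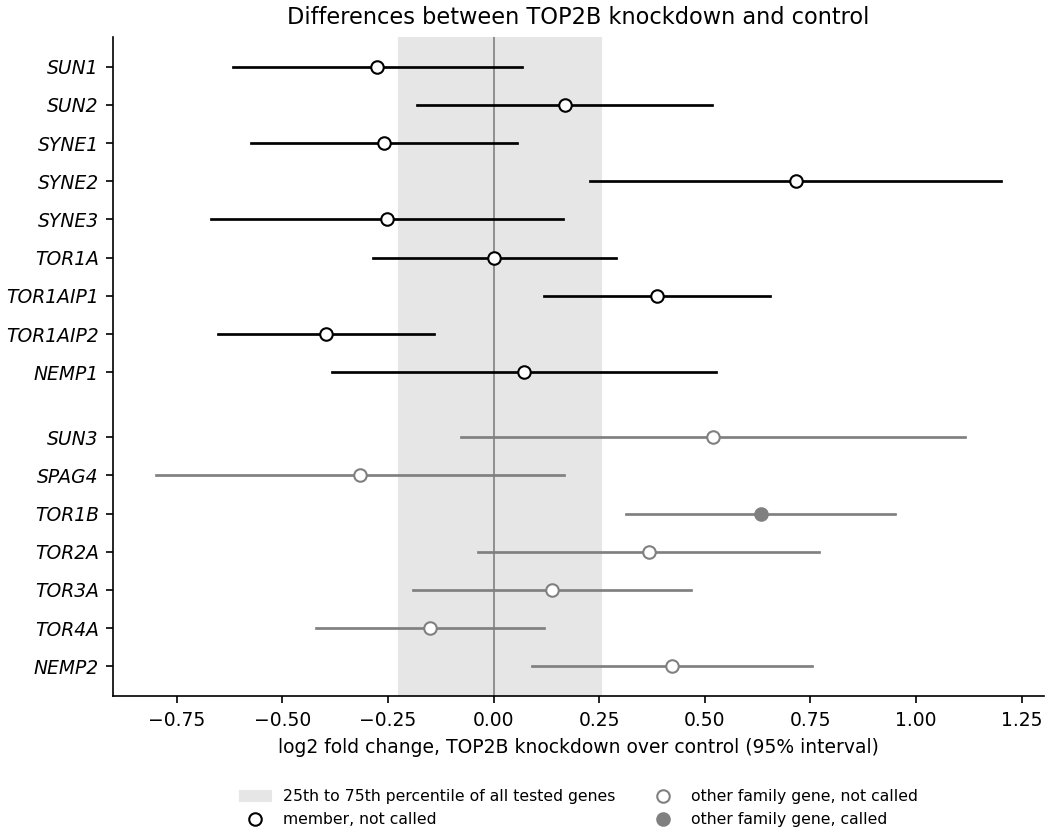
Log2 fold change of TOP2B knockdown over control with its 95% interval, for the 9 genes in black and the 7 tested relatives in grey, filled where the adjusted p was below 0.05. The intervals of SYNE2, TOR1AIP1 and TOR1AIP2 lie clear of 0 although none of these passed the threshold, and TOR1B at 0.63 is the filled point.

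The genes also differed in their transcript levels in control cells. Measured as CPM per kilobase of exons (mean ± SD, n = 2), NEMP1 stood first at 18.6 ± 4.16, followed by TOR1A at 15.9 ± 1.40, SUN1 at 15.2 ± 2.40, TOR1AIP1 at 10.8 ± 0.905, SUN2 at 7.27 ± 1.42, TOR1AIP2 at 6.05 ± 0.129, SYNE1 at 1.02 ± 0.0891, SYNE2 at 0.539 ± 0.124 and SYNE3 at 0.343 ± 0.0146. The control libraries of NEMP1 and TOR1A overlapped, as did those of TOR1A and SUN1, while each later pair of neighbours in this order was separate. NEMP1 stood above 82.3% of tested protein-coding genes and the nesprins in the low range, above 18.7% (SYNE1), 12.4% (SYNE2) and 9.03% (SYNE3). In TOP2B knockdown the mean of TOR1AIP1 (14.2 ± 0.0322) was above that of SUN1 (12.5 ± 1.73). For SYNE2 (0.885 ± 0.270) and SYNE1 (0.855 ± 0.133) the knockdown libraries overlapped on this scale, whereas in CPM, without the division by exon length, SYNE1 was higher (40.6 ± 6.33 beside 28.6 ± 8.74). The order in control also depends on this division. By mean control CPM, SUN1 stood first at 179.7, followed by TOR1AIP2 at 114.3 and NEMP1 at 106.5. The control libraries of TOR1AIP2 and NEMP1 overlapped. In knockdown, SUN1 (148.5 CPM) stood above TOR1AIP1 (66.5 CPM) without the division.

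**Figure D4:**
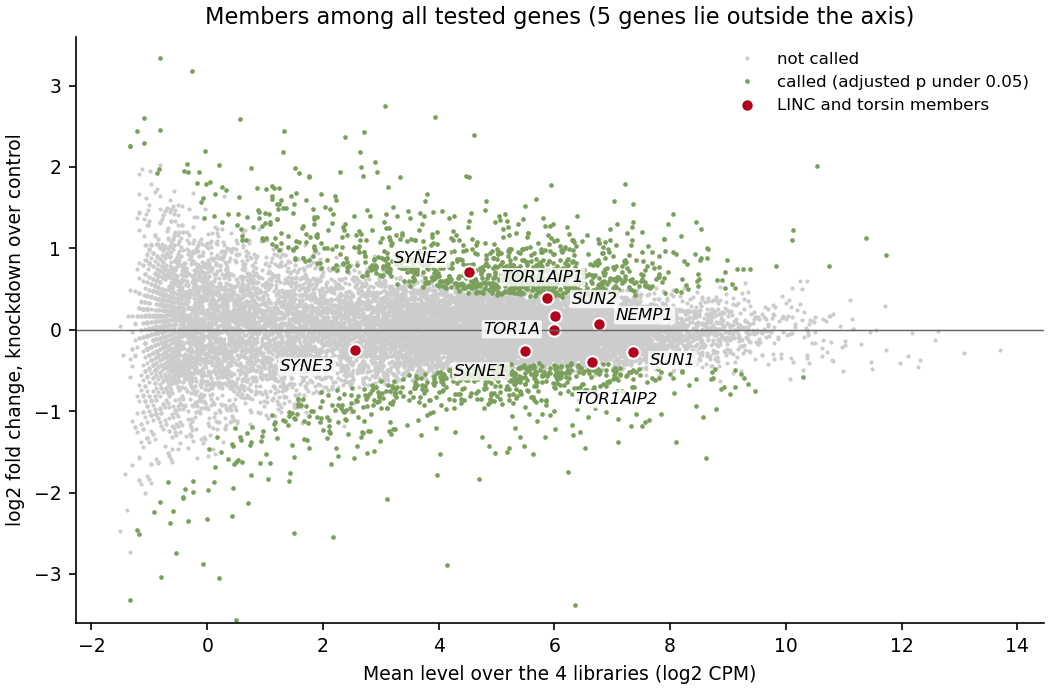
Log2 fold change against mean log2 CPM for all 15356 tested genes, with called genes in green, the others in grey and the 9 genes in red; 5 genes lie outside the axis. The 9 genes sit among the genes that were not called, with SYNE2 the highest at 0.71 and TOR1AIP2 the lowest at -0.40.

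The word GCAACC was searched on the sense strand of the 3′ UTR of the canonical GENCODE transcript, because it was noted earlier among genes that differ in these libraries, so that it is no independent evidence here. It occurred in 2 of the 9 genes, SYNE3 and TOR1AIP2, beside 23.4% of 12517 tested genes with a 3′ UTR. These were genes with long 3′ UTRs of 10560 and 6095 bases, against a median of 1357 bases. The 4 sites with 9 bases on each side are shown, with the word in capitals.
SYNE3 first site, chr14:95417409-95417432, minus strand: actttcatgGCAACCtcttctcca
SYNE3 second site, chr14:95415921-95415944, minus strand: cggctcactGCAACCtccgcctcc
SYNE3 last site, chr14:95409424-95409447, minus strand: ctgagctcaGCAACCaggaacacc
TOR1AIP2 site, chr1:179842126-179842149, minus strand: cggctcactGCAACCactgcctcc
The second SYNE3 site and the TOR1AIP2 site share 22 of 24 bases.

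Other genes of the SUN, KASH, torsin and NEMP families were looked up as a list of 11, of which 7 passed the filter. Of these, 1 was called higher, TOR1B, and 0 lower, where 6.66% and 4.18% of all tested genes were. The median log2 fold change of the 7 was 0.37, beside -0.0029 over all tested genes. NEMP2, the relative of NEMP1, had 12.4 and 11.1 CPM in control and 16.3 and 15.2 CPM in TOP2B knockdown, with a log2 fold change of 0.42 ± 0.15 (SE, edgeR adjusted p = 0.102). The other torsins were not called in edgeR, with log2 fold changes of 0.37 for TOR2A (adjusted p = 0.233), 0.14 for TOR3A (adjusted p = 0.602) and -0.15 for TOR4A (adjusted p = 0.476). Nor were the testis-enriched SUN genes, with log2 fold changes of 0.52 for SUN3 (adjusted p = 0.251), measured at 1.63 to 2.53 CPM, and -0.32 for SPAG4 (adjusted p = 0.396). The germ cell genes SUN5 and KASH5 had no count in any library, SYNE4 had at most 6 counts and IRAG2 at most 2.

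The cytoskeletal partners of the nesprins were 11 genes for kinesin-1, dynein, their adaptors, the formin FHOD1 and plectin. Of these, 0 were called in edgeR and 0 in DESeq2, where 10.8% and 11.6% of all genes with an adjusted p were. An unadjusted p below 0.05 in edgeR was found for 2, where 26.3% of all tested genes had one. The median log2 fold change of the 11 genes was -0.08. The smallest p-values belonged to KLC2, a kinesin light chain (log2 fold change 0.31, edgeR adjusted p = 0.126), and NDE1, a dynein regulator (log2 fold change 0.26, adjusted p = 0.179). Of the exon bases of KLC2 13.1% are shared with another gene, and of those of NDE1 20.4%. Where 6.66% of all tested genes were called higher in edgeR, 1 of 4 envelope partners of LINC proteins was. This was TMEM201, the inner nuclear membrane protein Samp1 that associates with SUN and TAN lines, with 34.1 and 29.2 CPM in control and 53.5 and 41.6 CPM in knockdown (log2 fold change 0.59 ± 0.15, SE, edgeR adjusted p = 0.0353).

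The call of TMEM201 was lost without control replicate 2 (edgeR adjusted p = 0.112), without knockdown replicate 1 (adjusted p = 0.214) and with a filter at a mean of 100 counts (adjusted p = 0.0541). LMNA, which encodes lamins A and C, had 781.6 and 861.2 CPM in control and 768.9 and 857.2 CPM in knockdown, and emerin (EMD) and TMEM43 were not called either. Among all genes with an adjusted p, edgeR called 10.8% and DESeq2 11.6%, and 26.3% had an unadjusted p below 0.05 in edgeR. Of 10 genes that seal the nuclear envelope or make its lipids, 0 were called in edgeR and 0 in DESeq2, and 0 had an unadjusted p below 0.05 in edgeR. The smallest p-values there were those of CHMP7, which recruits the ESCRT-III machinery to the envelope (log2 fold change -0.22, edgeR adjusted p = 0.317), and VPS4A (log2 fold change 0.18, adjusted p = 0.446), of whose exon bases 44.9% are shared with another gene.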

How the data were processed

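RNA-seq reads (single-end, 65 bp, TruSeq RNA kit) were, per the labels and methods, checked with FastQC 0.11.6 and aligned to GRCh38 with STAR 2.5.4a, which counted reads per gene with the Gencode v24 annotation. The authors deposited these raw counts, whole numbers without normalization. The column names speak of stranded paired-end data, against the single-end reads of the methods, and no source gives the strand used in counting. The file holds 4 further columns that repeat the same values, and these were not used.

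A gene entered the test with 10 counts or more in 2 libraries or more. The tool was edgeR 4.0.16 (glmQLFit, glmQLFTest, TMM, condition as the only term) in R 4.3.3. Benjamini-Hochberg adjustment ran over all 15356 tested genes, with a call at an adjusted p below 0.05. Intervals are 95% intervals and cover these libraries only. Alternatives were DESeq2 1.42.0, other scalings and filters, a replicate block and leaving out each library. Positions and exon lengths are from GENCODE v44, which matched 56558 gene identifiers. The RefSeq promoter table held 7 of the 9 genes, not SUN1 and TOR1A. The fit was tested on simulated data.

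The genes and lists were chosen with earlier results of these data known. All 9 genes were named, as were TOP2B, each tested relative, and of the partner and envelope lists each called gene or the 2 with the smallest p. TOR1A against TOR1B was added after the values were seen.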

Additional observations from a re-analysis of the deposited data

How the results depend on the processing

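With 2 libraries per group, differences of the size of SYNE2, TOR1AIP1 and TOR1AIP2 lay near the threshold, and their calls depend on the test. The Wald test of DESeq2 called 1 of the 9 genes higher (SYNE2, log2 fold change 0.70) and 1 lower (TOR1AIP2, -0.41). Among all genes it called 913 higher and 642 lower, 11.6% of the 13458 with an adjusted p. With no filter on low counts, edgeR called 1 of the 9 genes higher (SYNE2, 0.71), with 29440 genes fitted. Among all genes that fit called 1358 higher against 1023 in the main fit, and 985 lower against 642. The sign of TOR1A, which is close to 0, turned with the size factors of DESeq2 (-0.0057), with the Wald test (-0.014) and with no filter (-0.0032). Scaling by library size alone and a filter at a mean of 100 counts changed no call among the 9 genes. The cause of these changes was not tested.

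The groups share replicate numbers 1 and 2, but no label ties a control library to a knockdown library. Replicate 1 was above replicate 2 in both groups for 8 of the 9 genes, where 38.9% of all tested genes had this order in both groups. The differences between replicates 1 and 2 correlated across genes between control and knockdown at 0.479 (15356 genes, which are not independent). Over the 6256 genes with a log2 CPM above 5 the correlation was 0.844. With a replicate block, edgeR called 3440 genes higher and 3346 lower, 44.2% of those tested. It called 6 of the 9 genes, 3 higher and 3 lower, with log2 fold changes of -0.27 for SUN1, 0.17 for SUN2, -0.26 for SYNE1, 0.71 for SYNE2, 0.39 for TOR1AIP1 and -0.40 for TOR1AIP2.

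Leaving out each library in turn, where a lone sample is assumed to vary like the other group, gave 708 to 1003 genes called higher and 452 to 535 lower, and 0 to 1 of the 9 genes called higher and 0 lower. The log2 fold change ranged from -0.42 to -0.11 for SUN1, -0.011 to 0.38 for SUN2, -0.42 to -0.10 for SYNE1, 0.37 to 1.00 for SYNE2, -0.33 to -0.17 for SYNE3, -0.10 to 0.11 for TOR1A, 0.31 to 0.47 for TOR1AIP1, -0.42 to -0.36 for TOR1AIP2 and -0.25 to 0.35 for NEMP1, so that the direction turned for SUN2, TOR1A and NEMP1. The differences of the shares ranged from -7.73 to -6.57 percentage points for SUN1, 12.1 to 18.1 for SYNE2, -13.1 to -9.79 for SYNE1, -5.05 to -2.30 for SYNE3, 10.4 to 12.4 for TOR1AIP1 and -10.2 to -9.19 for TOR1A. From counts not divided by exon length they were -6.30 points for SUN1, -1.54 for SYNE3, 12.6 for TOR1AIP1 and -8.54 for TOR1A, each with the same sign.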
